A study of Mus musculus with 17 samples.

Results

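In all, 10 genes of the response to foreign compounds were followed in mouse embryonic fibroblasts (MEFs) that differ in the deubiquitinase gene Usp28: Cyp1b1, Cyp1a1, Ahr, Ahrr, Arnt, Tiparp, Nqo1, Hmox1, Gclm and Nfe2l2. They are 10 of 37576 genes in the table of the immortalized cells and 10 of 33440 genes in the table of the Ras cells. The genes were listed by symbol after their levels and folds in all groups were known, so their own levels and folds are given as a description, with an error and no test. RNA-seq was run on 17 libraries of C57bl/6 MEFs from E13.5 embryos, all of which had received pRetroSuper-shp19ARF, a retrovirus with a hairpin RNA against p19ARF. The immortalized set had no further vector and holds Usp28 +/+, +/- and -/- cells, with 3 libraries for each genotype. The Ras set also carried pBabe-HRasG12V, an activated form of the GTPase HRAS. Its +/+, +/- and -/- cells had the control vector pWZL-GFP and another group of +/+ cells had pWZL-USP28, with 2 libraries in each of the 4 groups. The submitters call the immortalized replicates biological and do not say so of the Ras replicates. Whether any come from separate embryos or cultures is not given, so a p-value measures only the spread between these libraries, which may be technical.

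The deposited tables hold comparisons against +/+ and give no value for a single library. Levels below are therefore 1 value for each group, in RPM (a gene's reads per 1000000 reads of the group), rebuilt from the mean log2 level and the log2 ratio in the authors' deposited tables. Each level has a 95% Poisson interval that covers counting error only, or a log2 fold has a standard error (SE) implied by the single dispersion that the authors' p-values carry. Such an SE is not a spread measured for that gene. The 2 tables were normalized apart, so levels are to be read within a set. Summed over its libraries, a group held 11.4 to 13.9 M reads (M, 1000000), which makes 1 read worth 0.0720 to 0.0879 RPM. Usp28 itself stood at 16.5 RPM in immortalized +/+, 9.96 in +/- and 13.3 in -/- cells. In Ras cells it stood at 26.5 RPM in +/+, 18.6 in +/-, 14.8 in -/- and 26.4 with the USP28 vector. The labels do not say which part of the gene is deleted or which sequence the vector carries, so these reads cannot check the labels, and groups are named as labelled. Of 10 fibroblast markers 10 were matched, and together they reached 36479 to 45217 RPM in immortalized and 9771 to 17673 RPM in Ras cells. Collagen genes, Vim and Fn1 carry these sums. The other markers differed between the Ras groups. Pdgfra stood at 21.6, 22.2, 90.9 and 22.0 RPM in Ras +/+, +/-, -/- and USP28 cells, and Pdgfrb at 54.9, 7.06, 174 and 44.9 RPM. Lum was at 0 in Ras +/+, +/- and USP28 cells and at 22.6 RPM in Ras -/- cells. Thy1 was at 0 in Ras +/- and USP28 cells and at 0.0878 and 0.502 RPM in Ras +/+ and -/- cells. It was at 177 to 289 RPM in the immortalized cells, which were normalized apart. Dcn was at 0.354 RPM in Ras +/+ and 0.819 with USP28, against 118 in Ras +/- and 99.8 in Ras -/- cells. In bulk RNA, fewer cells of a type and less RNA per cell cannot be told apart.

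AHR, the product of Ahr, is a transcription factor that waits in the cytosol with HSP90 until a ligand such as dioxin binds it. It then enters the nucleus, pairs with ARNT and binds the xenobiotic response element (XRE), which turns on Cyp1a1, Cyp1b1, Ahrr and Tiparp. AHRR competes for ARNT and TIPARP adds ADP-ribose to AHR, so both damp the response. NRF2, the product of Nfe2l2, is held down by KEAP1 and, after oxidative or electrophilic stress, binds the antioxidant response element (ARE) of genes such as Nqo1, Hmox1 and Gclm. CYP1B1 rather than CYP1A1 is known as the CYP1 enzyme of embryo fibroblasts.

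Promoter windows, the 250 bases before the gene start in RefSeq (GRCm38.p6), were available for 8 of the 10 genes; Ahr and Hmox1 had none in the table used. The AHR-regulated members are shown because their levels part from each other in the results, and Nfe2l2 because its level was higher in the Ras +/- and -/- groups. In the first 4 sequences capitals mark the XRE core, GCGTG, or its reverse complement CACGC, and in Nfe2l2 they mark the ARE core TGACNNNGC.
Cyp1b1, chr17:79715062-79715311, minus strand: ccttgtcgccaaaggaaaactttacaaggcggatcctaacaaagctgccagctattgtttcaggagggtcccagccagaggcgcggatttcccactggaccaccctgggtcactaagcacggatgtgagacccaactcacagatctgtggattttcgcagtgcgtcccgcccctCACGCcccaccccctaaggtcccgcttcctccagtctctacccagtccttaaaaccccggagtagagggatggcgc
Cyp1a1, chr9:57697363-57697612, plus strand: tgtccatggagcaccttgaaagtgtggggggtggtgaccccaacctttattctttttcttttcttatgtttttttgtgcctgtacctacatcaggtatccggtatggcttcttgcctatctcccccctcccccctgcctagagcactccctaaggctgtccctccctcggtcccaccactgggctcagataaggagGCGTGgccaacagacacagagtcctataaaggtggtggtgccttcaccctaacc
Ahrr, chr13:74292332-74292581, minus strand: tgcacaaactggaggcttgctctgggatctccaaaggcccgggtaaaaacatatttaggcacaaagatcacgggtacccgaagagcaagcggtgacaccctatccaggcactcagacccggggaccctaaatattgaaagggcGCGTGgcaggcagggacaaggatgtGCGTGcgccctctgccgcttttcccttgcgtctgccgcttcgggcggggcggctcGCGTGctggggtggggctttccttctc
Tiparp, chr3:65528197-65528446, plus strand: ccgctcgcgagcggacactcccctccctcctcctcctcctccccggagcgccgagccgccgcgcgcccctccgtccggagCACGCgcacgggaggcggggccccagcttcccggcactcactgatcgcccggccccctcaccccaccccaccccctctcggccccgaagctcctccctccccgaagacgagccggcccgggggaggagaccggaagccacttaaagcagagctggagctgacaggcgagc
Nfe2l2, chr2:75704664-75704913, minus strand: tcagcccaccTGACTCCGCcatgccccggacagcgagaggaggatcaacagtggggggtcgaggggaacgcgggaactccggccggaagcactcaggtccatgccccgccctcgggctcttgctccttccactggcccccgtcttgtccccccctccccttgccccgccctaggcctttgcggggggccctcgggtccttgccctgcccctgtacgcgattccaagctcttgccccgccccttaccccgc
The XRE core, searched on both strands, was in 6 of the 8 windows (Cyp1b1, Cyp1a1, Ahrr, Arnt, Tiparp and Gclm), and in 28.2% of 32851 promoter windows of the same length. Cyp1b1 held 1 core, at bases -76 to -72 from the gene start, and Cyp1a1 held 1 at -54 to -50. Ahrr held 3, of which the one closest to the start lies inside the longer form TNGCGTG, which 4.10% of all windows hold. The ARE core was in 3 of the 8 windows (Arnt, Gclm and Nfe2l2) and in 10.2% of all windows. The window of Nqo1, a gene regulated by both factors, held neither. A match describes letters in this window, not a bound site.

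Cyp1b1 (ENSMUSG00000024087, GRCm38 chromosome 17, 79701537 to 79715061, minus strand) encodes a cytochrome P450 that oxidizes aromatic hydrocarbons and estradiol. Its level was 199 RPM in immortalized +/+, 658 in +/- and 270 in -/- cells. In Ras cells it was 221 RPM in +/+, 1464 in +/-, 0.717 in -/- and 143 with the USP28 vector. The level of the Ras -/- cells rests on 10 reads (95% counting interval 0.345 to 1.32 RPM), against 2514 reads in +/+ and 19342 in +/- cells. So +/- was the highest genotype in both sets, while -/- stood near +/+ in immortalized cells and was almost empty in Ras cells. Against +/+, the log2 fold of +/- was 1.72 (SE 0.38) in immortalized and 2.73 (SE 0.21) in Ras cells. That of -/- was 0.44 (SE 0.25, 95% interval -0.06 to 0.93) in immortalized cells and -8.27 (SE 0.49, 95% interval -9.24 to -7.30) in Ras cells, a 308-fold lower level. Between the 2 mutant genotypes, -/- was lower than +/- by a log2 fold of -1.28 (SE 0.46) in immortalized and -11.00 (SE 0.53) in Ras cells, the latter a 2042-fold gap. The USP28 vector came with a log2 fold of -0.63 (SE 0.19). In the order of all genes tested, the Ras -/- fold of Cyp1b1 was the 23rd lowest of 15868, and its +/- fold was the 650th highest of 15950.

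**Figure D1:**
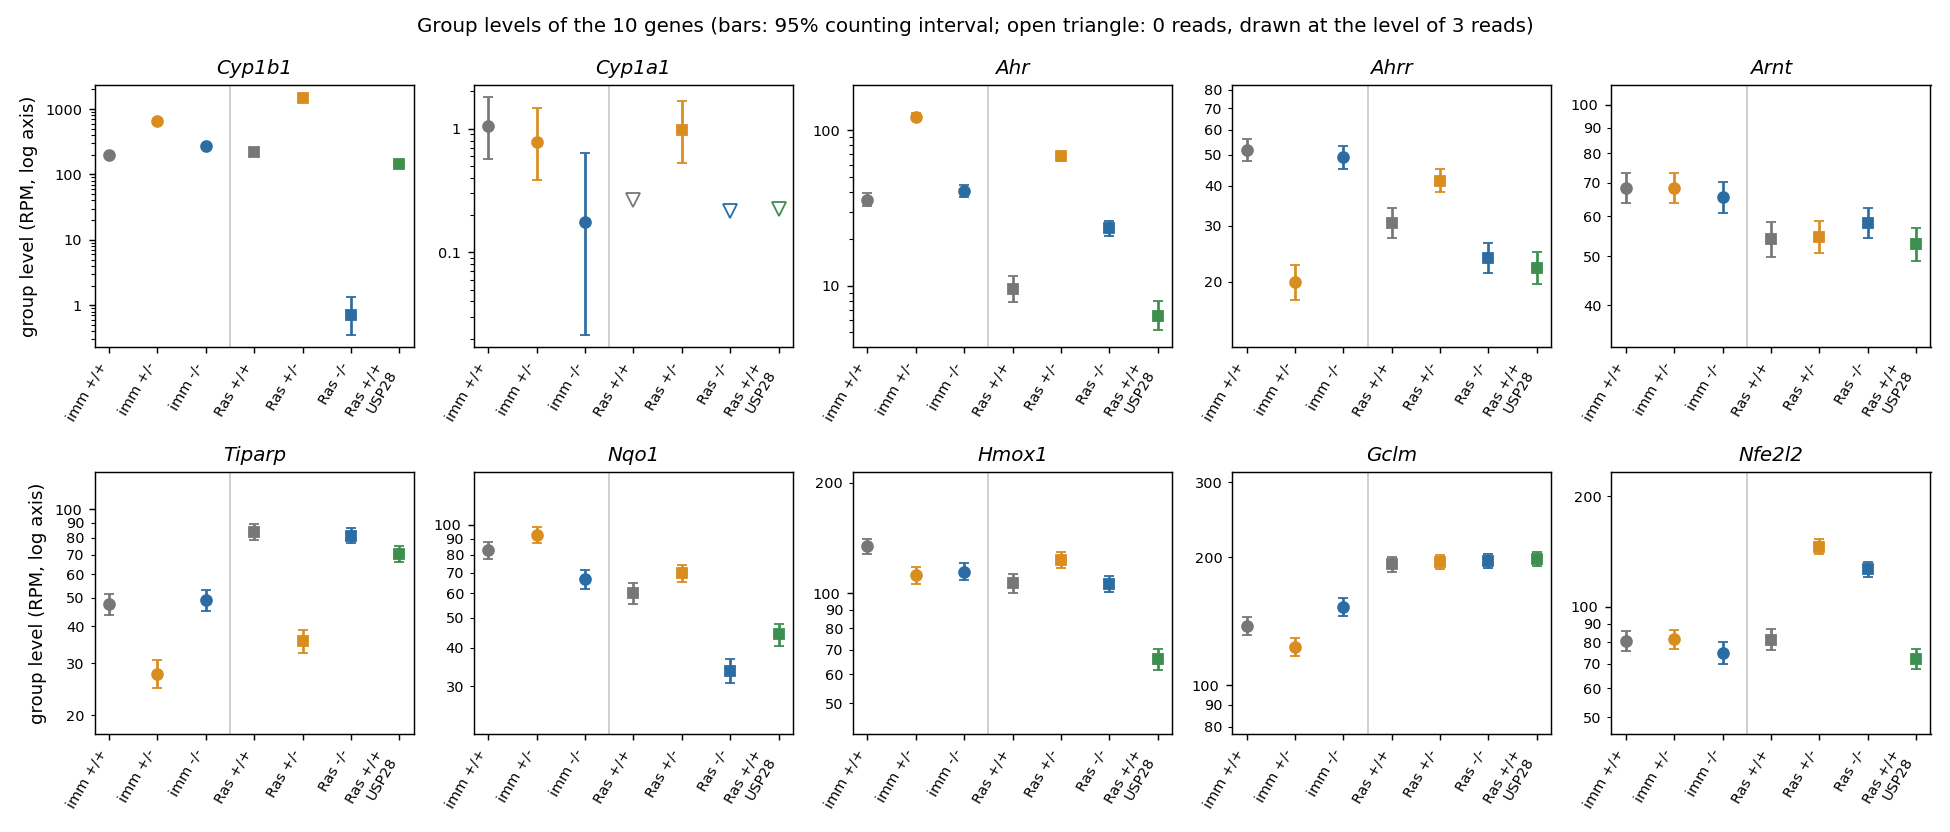
Level of each gene in the 7 groups, in RPM on a log axis, with 1 point for each group and bars for the 95% counting interval; imm, immortalized; open triangles stand for 0 reads and are drawn at the level of 3 reads. Cyp1b1 drops to 0.717 RPM in Ras -/- cells and peaks at 1464 RPM in Ras +/- cells, while Arnt stays between 52.8 and 68.4 RPM.

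Other sets of markers differed between the groups alongside Cyp1b1. Epithelial markers (7 of 7 matched: Epcam, Cdh1, Krt5, Krt8, Krt14, Krt18 and Krt19) summed to 50.8, 357 and 68.5 RPM in immortalized +/+, +/- and -/- cells. In Ras cells they summed to 72.6 RPM in +/+, 1446 in +/-, 1.94 in -/- and 86.6 with USP28. Krt19 alone made up 71.5 of the sum in Ras +/+ and 85.4 with USP28, and stood at 0.215 RPM in Ras -/- cells. Without Krt19 the epithelial sum was 6.03, 262 and 1.496 RPM in immortalized +/+, +/- and -/- cells, and 1.06, 986, 1.72 and 1.27 RPM in Ras +/+, +/-, -/- and USP28 cells. The sum of the other 6 was therefore high in the +/- groups and was not lower in Ras -/- than in Ras +/+. Krt8 went from 0.263 RPM in Ras +/+ to 465 in Ras +/- cells, Cdh1 stood at 0.352 RPM in Ras +/+ and 0.717 in Ras -/- cells, and Epcam was at or near 0 in every group, at most 0.263 RPM. Mesothelial markers (6 of 6) summed to 23.8, 1636 and 15.003 RPM in immortalized cells and to 425, 1666, 6.59 and 467 RPM in Ras cells. Msln alone made up 424.6 of the sum in Ras +/+ and 5.09 in Ras -/- cells, and it was at 209 RPM in Ras +/- cells. Without Msln the sum was 2.84, 1161 and 8.38 RPM in immortalized +/+, +/- and -/- cells, and 0.528, 1457 and 1.51 RPM in Ras +/+, +/- and -/- cells, with 1.04 RPM for USP28. Among them Lrrn4 was at 0 in immortalized +/+, Ras +/+, Ras -/- and USP28 cells, and Bnc1 was at 0 in Ras -/- cells. Smooth muscle and pericyte markers summed to 408 RPM in Ras +/- cells, against 1684 to 3024 RPM in the other Ras groups. Acta2 carried these sums, at 399 RPM in Ras +/- and 2769, 1515 and 3016 RPM in Ras +/+, -/- and USP28 cells. Cspg4 was at 160 RPM in Ras -/- cells and at 0.224 to 0.302 RPM in the other Ras groups. Macrophage markers stayed at 18.2 to 32.2 RPM and endothelial markers at 4.16 to 19.6 RPM. The sex-linked RNAs differed too: Xist, which silences an X chromosome in female cells, was at 89.7, 296 and 126 RPM in immortalized +/+, +/- and -/- cells, and at 336, 25.5, 0.215 and 323 RPM in Ras +/+, +/-, -/- and USP28 cells. The Y-linked Eif2s3y was at 18.6, 0 and 14.9 RPM in the immortalized and 0, 0.151, 22.4 and 0.0745 RPM in the Ras groups. The part of these cell type and sex differences in any result given here was not tested.

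**Figure D2:**
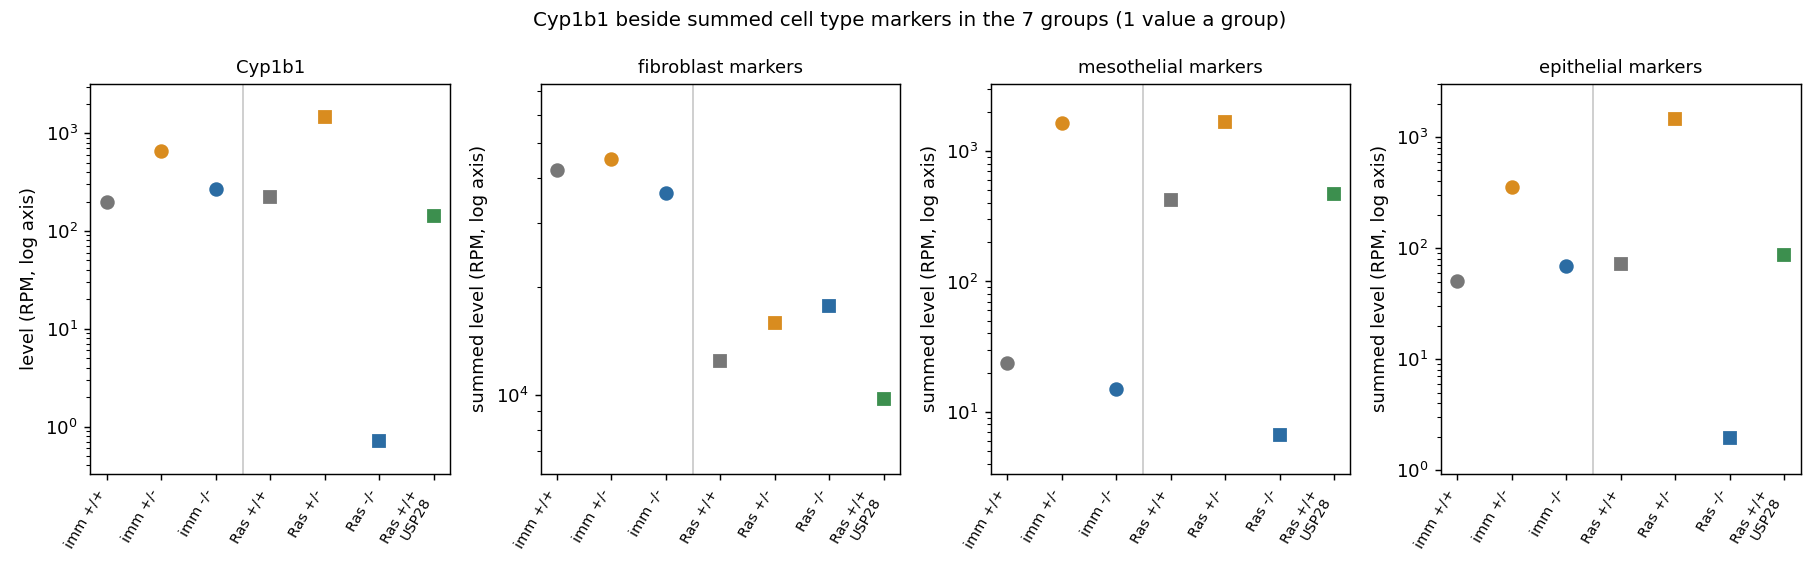
Cyp1b1 beside the summed fibroblast, mesothelial and epithelial marker levels in the 7 groups, in RPM on log axes, with 1 point for each group. The epithelial sum and Cyp1b1 are both highest in Ras +/- cells (1446 and 1464 RPM); the low epithelial sum in Ras -/- cells (1.94 RPM) against Ras +/+ (72.6 RPM) is that of Krt19 alone.

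Genes were ranked by how close their 5 log2 folds over +/+ lie to those of Cyp1b1, as the root mean square difference over 14493 genes with a mean of at least 1 RPM in every comparison. The closest was Krt19, a keratin of simple epithelia and mesothelium, at 0.50, against a median of 3.999 and a 5th percentile of 3.63 over all genes compared. Its level was 44.8, 94.8 and 67.0 RPM in immortalized +/+, +/- and -/- cells and 71.5, 461, 0.215 and 85.4 RPM in Ras +/+, +/-, -/- and USP28 cells. Krt19 rested on 3 reads in Ras -/- cells, with a 95% counting interval of -10.65 to -6.82 for its log2 fold. Vstm5, a membrane protein of the immunoglobulin family, followed at 0.87, then Zcchc3 at 0.99 and Ripk3, a kinase of necroptosis, at 1.02. These 3 genes had 0 reads in Ras -/- cells. Set against 3 reads there (0.216 RPM), their levels in Ras +/+ were 56.4-fold, 92.8-fold and 13.1-fold higher. That floor does not cover counting error, since the 95% Poisson upper limit for 0 reads in Ras -/- cells is 0.266 RPM. Alcam, a cell adhesion molecule, was next at 1.08 and had 2 reads in Ras -/- cells, with a counting interval of -9.60 to -4.67 for its log2 fold. The measure weighs large folds most, so all 5 share the loss in Ras -/- cells with Cyp1b1.

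**Figure D3:**
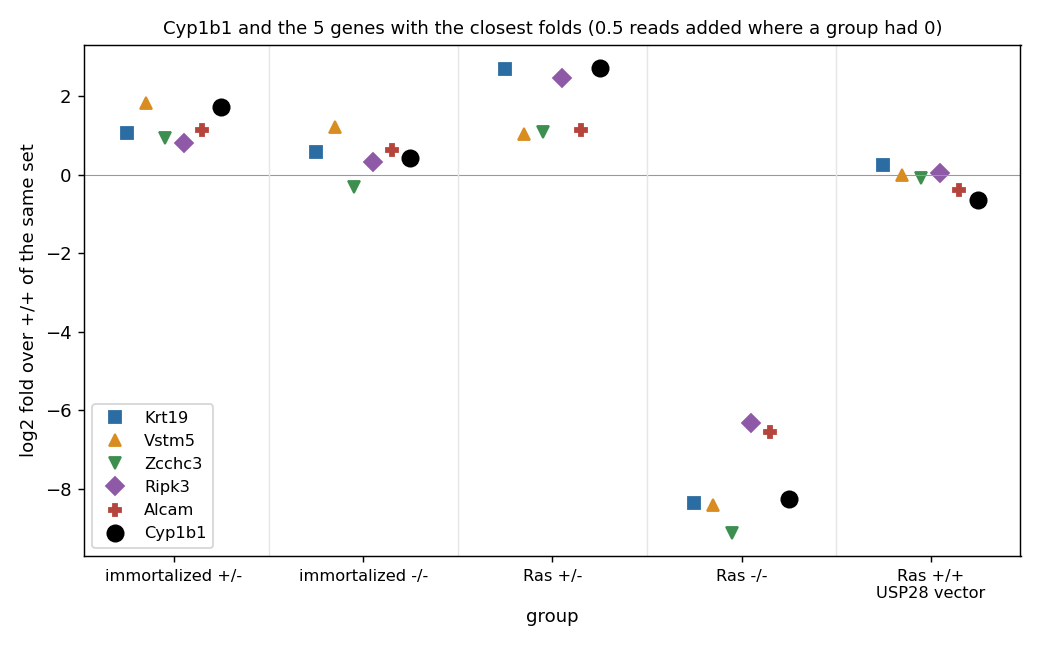
Log2 folds over +/+ of the same set for Cyp1b1 (large markers) and the 5 genes closest to it, with 1 point for each gene and group and 0.5 reads added where a group had 0. All 6 points lie above 0 in both +/- groups and are lowest in Ras -/- cells, where the positions of Vstm5, Zcchc3 and Ripk3 depend on the 0.5 reads added.

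Cyp1a1 (ENSMUSG00000032315, chromosome 9, 57687928 to 57703824, plus strand) encodes the P450 most used as a sign of AHR activation. It was at the edge of detection in all groups. Its levels were 1.05 RPM in immortalized +/+ (13 reads), 0.786 in +/- (10 reads) and 0.175 in -/- cells (2 reads). In Ras cells it was at 0.982 RPM in +/- (13 reads) and had 0 reads in the 3 other groups, where 3 reads would be 0.216 to 0.264 RPM. Set against 3 reads over each of those groups, the Ras +/- level was 3.72-fold that of Ras +/+, 4.55-fold that of -/- and 4.38-fold that of USP28 cells. With the counting error of both groups, the log2 fold of Ras +/- over +/+ has a lower limit of 1.39, and those of -/- and USP28 over +/- have upper limits of -1.68 and -1.62. In immortalized cells the log2 fold of -/- over +/+ was -2.58, with a counting interval of -5.78 to -0.45. Per kilobase of exon, Cyp1b1 stood at 34.1 and Cyp1a1 at 0.377 RPM in immortalized +/+ cells, so Cyp1b1 was the more abundant CYP1 transcript by length as well.

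Ahr (ENSMUSG00000019256, chromosome 12, 35497974 to 35535038, minus strand), the receptor, was highest in +/- cells of both sets. It stood at 35.9 RPM in immortalized +/+, 123 in +/- and 40.6 in -/- cells. In Ras cells it was 9.56 RPM in +/+, 68.1 in +/-, 23.4 in -/- and 6.41 with USP28. Immortalized -/- cells were thus near +/+, whereas Ras -/- cells lay between +/+ and +/-. The log2 fold over +/+ was 1.77 (SE 0.39) for immortalized +/- and 2.83 (SE 0.25) for Ras +/-. For -/- it was 0.18 (SE 0.27) in immortalized and 1.29 (SE 0.26) in Ras cells, a 2.45-fold higher level, the opposite direction to Cyp1b1 in the same cells. The USP28 vector came with -0.58 (SE 0.28, 95% interval -1.12 to -0.03).

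Arnt (ENSMUSG00000015522, chromosome 3, 95434388 to 95497240, plus strand), the partner of AHR, was nearly level. It stood at 68.3, 68.4 and 65.4 RPM in immortalized +/+, +/- and -/- cells, and at 54.1, 54.7, 58.3 and 52.8 RPM in Ras +/+, +/-, -/- and USP28 cells. The widest of its 95% intervals over +/+ ran from -0.76 to 0.76, in immortalized +/- cells.

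The feedback genes had other orders than Ahr. Ahrr (ENSMUSG00000021575, chromosome 13, 74211118 to 74292331, minus strand) stood at 51.7 RPM in immortalized +/+, 19.98 in +/- and 49.2 in -/- cells. In Ras cells it was 30.6 RPM in +/+, 41.5 in +/-, 23.8 in -/- and 22.1 with USP28. Its +/- level was the lowest of the immortalized genotypes and the highest of the Ras groups, with log2 folds over +/+ of -1.37 (SE 0.40) and 0.44 (SE 0.23). The other folds of Ahrr were -0.07 (SE 0.26) for immortalized -/-, -0.36 (SE 0.24) for Ras -/- and -0.47 (SE 0.22) for USP28. Tiparp (ENSMUSG00000034640, chromosome 3, 65528410 to 65555518, plus strand) was lowest in +/- cells of both sets. It stood at 47.6, 27.6 and 48.95 RPM in immortalized +/+, +/- and -/- cells and at 83.7, 35.6, 81.3 and 70.4 RPM in Ras +/+, +/-, -/- and USP28 cells. The log2 fold of +/- over +/+ was -0.79 (SE 0.39) and -1.23 (SE 0.22). In Ras cells -/- lay above +/- by 1.19 (SE 0.30) and within 0.04 of +/+.

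Nfe2l2 (ENSMUSG00000015839, chromosome 2, 75675513 to 75704641, minus strand), which encodes NRF2, differed with genotype in Ras cells and hardly in immortalized cells. It stood at 80.7, 81.5 and 75.1 RPM in immortalized +/+, +/- and -/- cells. In Ras cells it was 81.4 RPM in +/+, 146 in +/-, 127 in -/- and 72.0 with USP28. The log2 folds over Ras +/+ were 0.84 (SE 0.21) for +/- and 0.64 (SE 0.22) for -/-. The 2 mutant genotypes differed by -0.20 (SE 0.30), with an interval of -0.79 to 0.38.

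The NRF2 targets Nqo1, Hmox1 and Gclm each had an order of their own. Nqo1 (ENSMUSG00000003849, chromosome 8, 107388225 to 107403206, minus strand), a quinone reductase, stood at 82.7, 92.8 and 66.7 RPM in immortalized +/+, +/- and -/- cells and at 59.97, 69.7, 33.7 and 44.2 RPM in Ras +/+, +/-, -/- and USP28 cells. It was lowest in -/- cells of both sets, with log2 folds of -0.31 (SE 0.26) in immortalized and -0.83 (SE 0.23) in Ras cells. Hmox1 (ENSMUSG00000005413, chromosome 8, 75093621 to 75100589, plus strand), which breaks down heme, stood at 134, 112 and 114 RPM in immortalized cells. In the Ras set it was 106 RPM in +/+, 123 in +/-, 106 in -/- and 65.9 with USP28, so the USP28 group lay apart, with a log2 fold of -0.69 (SE 0.19). Gclm (ENSMUSG00000028124, chromosome 3, 122245557 to 122270732, plus strand), the modifier subunit of the enzyme that starts glutathione synthesis, stood at 138, 123 and 153 RPM in immortalized cells and at 192 to 198 RPM in all Ras groups. Its log2 folds over +/+ ran from -0.16 to 0.15.

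**Figure D4:**
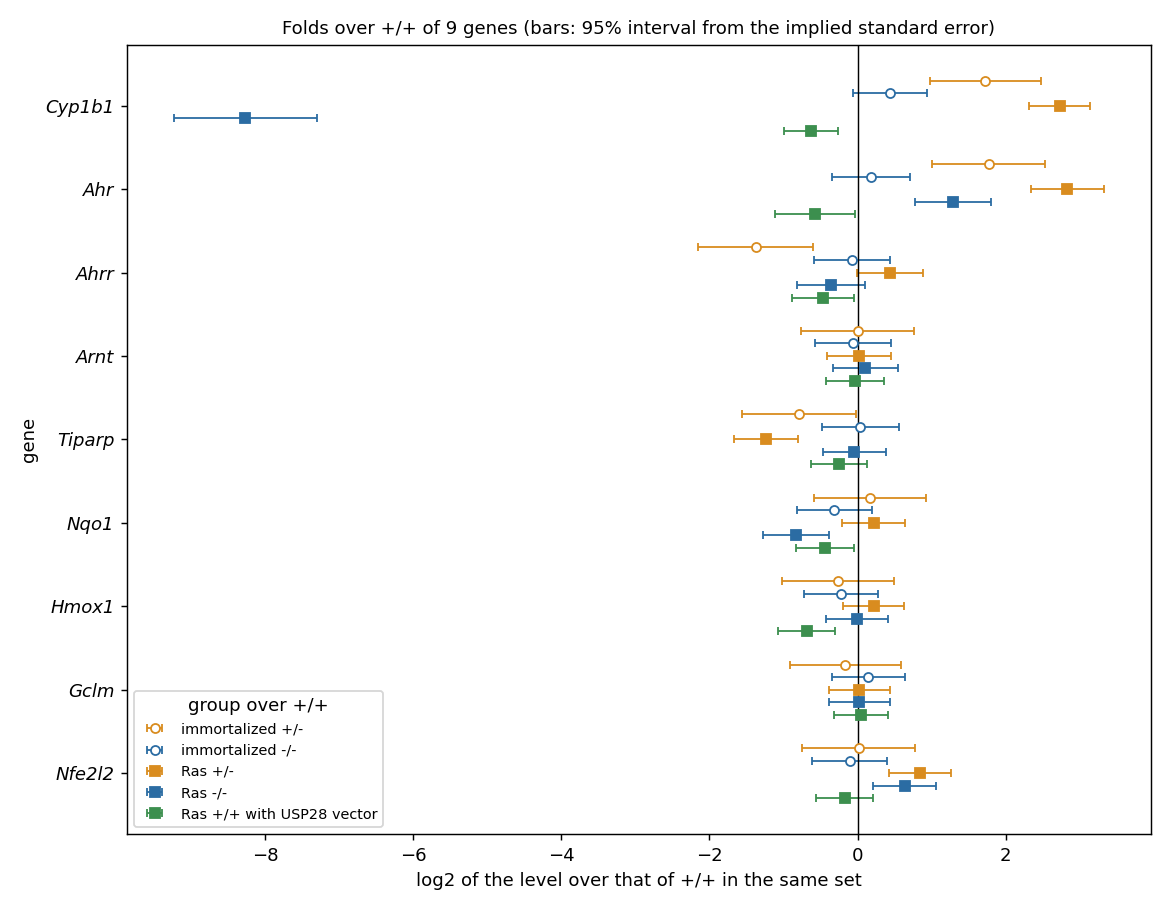
Log2 fold over +/+ of the same set for 9 of the genes in 5 groups, with bars for the 95% interval from the implied standard error; Cyp1a1 is left out because its folds rest on 13 reads or fewer. Cyp1b1 spans -8.27 to 2.73, Ahr and Cyp1b1 lie highest in both +/- groups, and Arnt and Gclm lie near 0.

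At the threshold used here (the authors' deposited edgeR p, Benjamini-Hochberg adjusted over genes with a mean of at least 1 RPM, under 0.05), 9 of the 10 genes could be called, since Cyp1a1 lay under the filter in each comparison. In immortalized +/- cells 3 of 9 passed (Cyp1b1 and Ahr higher, Ahrr lower), where 8.25% of all genes tested did, 5.04% higher and 3.21% lower. In immortalized -/- cells 0 of 9 passed, where 4.21% of all genes did, 1.29% higher and 2.93% lower. There 0 of 9 had an unadjusted edgeR p under 0.05, against 2393 of 16727 genes tested. In Ras +/- cells 4 of 9 passed (Cyp1b1, Ahr and Nfe2l2 higher, Tiparp lower), where 34.1% of all genes did, 17.5% higher and 16.7% lower. In Ras -/- cells 4 of 9 passed (Ahr and Nfe2l2 higher, Cyp1b1 and Nqo1 lower), where 27.6% of all genes did, 15.2% higher and 12.4% lower. With the USP28 vector 1 of 9 passed (Hmox1, lower), where 1.09% of all genes did, 0.0907% higher and 0.997% lower. There 5 of 9 had an unadjusted edgeR p under 0.05, against 699 of 15444 genes tested. The median log2 fold of the 9 was -0.44, against 0.01 over all genes. The genes were chosen on these comparisons, so the counts are a description. Cyp1a1 was called higher in Ras +/- cells with no filter on level and by the authors' own adjusted p. That call rests on 13 reads against 0 in Ras +/+ cells and is a description too. Hmox1 lost its call with no filter on level, at a threshold of 0.01, with the authors' own adjusted p and with the dispersion doubled. Ahrr in immortalized +/- cells lost its call with the dispersion doubled, and Nfe2l2 in Ras -/- cells with the dispersion doubled and at 0.01.

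Other genes known as AHR targets, 17 in the list, had the highest median fold of the 5 lists in immortalized +/-, Ras +/- and Ras -/- cells. In immortalized +/- cells 6 of 13 tested rose and 0 fell, with a median log2 fold of 0.68, against -0.00 over all genes, of which 8.25% were called. The list holds 4 Ugt1a genes that share exons and cannot be read as separate. With that locus counted once, a choice made after the data were seen, 3 of 10 rose and the median was 0.35. Cyp2s1, a P450 of epithelia, rose from 0.404 to 12.6 RPM (log2 fold 4.96, SE 0.74; edgeR adjusted p = 5.43e-13), and Xdh, xanthine dehydrogenase, rose from 2.02 to 27.3 RPM (3.76, SE 0.48; 2.00e-12). In immortalized -/- cells, where 4.21% of all genes were called, 0 of 12 rose and 1 fell. The 1 gene was Aldh3a1, an aldehyde dehydrogenase, which went from 24 to 2 reads. Its log2 fold was -3.47, with a counting interval of -6.60 to -1.47. Aldh3a1 was at 0.176 RPM in these -/- cells and passed the filter only through +/+ cells, at 1.95 RPM. The call was lost with the filter at 5 RPM. In Ras +/- cells 10 of 13 rose and 1 fell, with a median of 3.42 against 0.01 over all genes, of which 17.5% rose and 16.7% fell. With the locus once, 7 of 10 rose and the median was 2.40. In Ras -/- cells 8 of 11 rose and 2 fell, with a median of 3.00 against -0.01 over all genes, of which 15.2% rose and 12.4% fell. With the locus once, 5 of 8 rose and the median was 1.96. The filter is on the mean of both groups. In Ras +/- cells Cyp2s1, Serpinb2 and Htatip2 passed it only through their level there, so they could only count as higher. The same holds for Cyp2s1 in immortalized +/- and for Htatip2 in Ras -/- cells. Serpinb2 and Htatip2 are named here after their values were seen. With USP28 0 of 10 passed the adjusted edgeR p, and the median was -0.36. Of the 10, 3 had an unadjusted edgeR p under 0.05, against 699 of 15444 genes tested.

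In Ras -/- cells, where Cyp1b1 was low, several listed AHR targets were higher. Ugt1a6a, a glucuronosyltransferase, rose from 6.24 RPM in Ras +/+ to 93.7 in +/- (log2 fold 3.91, SE 0.27; edgeR adjusted p = 2.44e-46) and to 67.8 in -/- cells (3.44, SE 0.27; 1.36e-35). Ugt1a6a and Ugt1a6b had 1238 and 1236 reads in Ras +/- cells, and how reads were split between them is uncertain. Further genes of the list are named after their values were seen. Htatip2 went from 7 reads in Ras +/+ to 87 in +/- and 218 in -/- cells. Aldh3a1 went the way of Cyp1b1 in Ras cells: 9.73 RPM in +/+, 26.0 in +/- and 0.0717 in -/- cells, the last from 1 read, with a counting interval of -12.40 to -4.57 for its log2 fold. Cyp2s1 rose from 0.525 to 49.5 RPM in Ras +/- cells (6.56, SE 0.61; 5.15e-59) and was at 0.430 RPM in -/- cells, under the filter. Slc7a5, an amino acid carrier, fell in both, from 566 RPM to 129 in +/- and 228 in -/- cells.

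**Figure D5:**
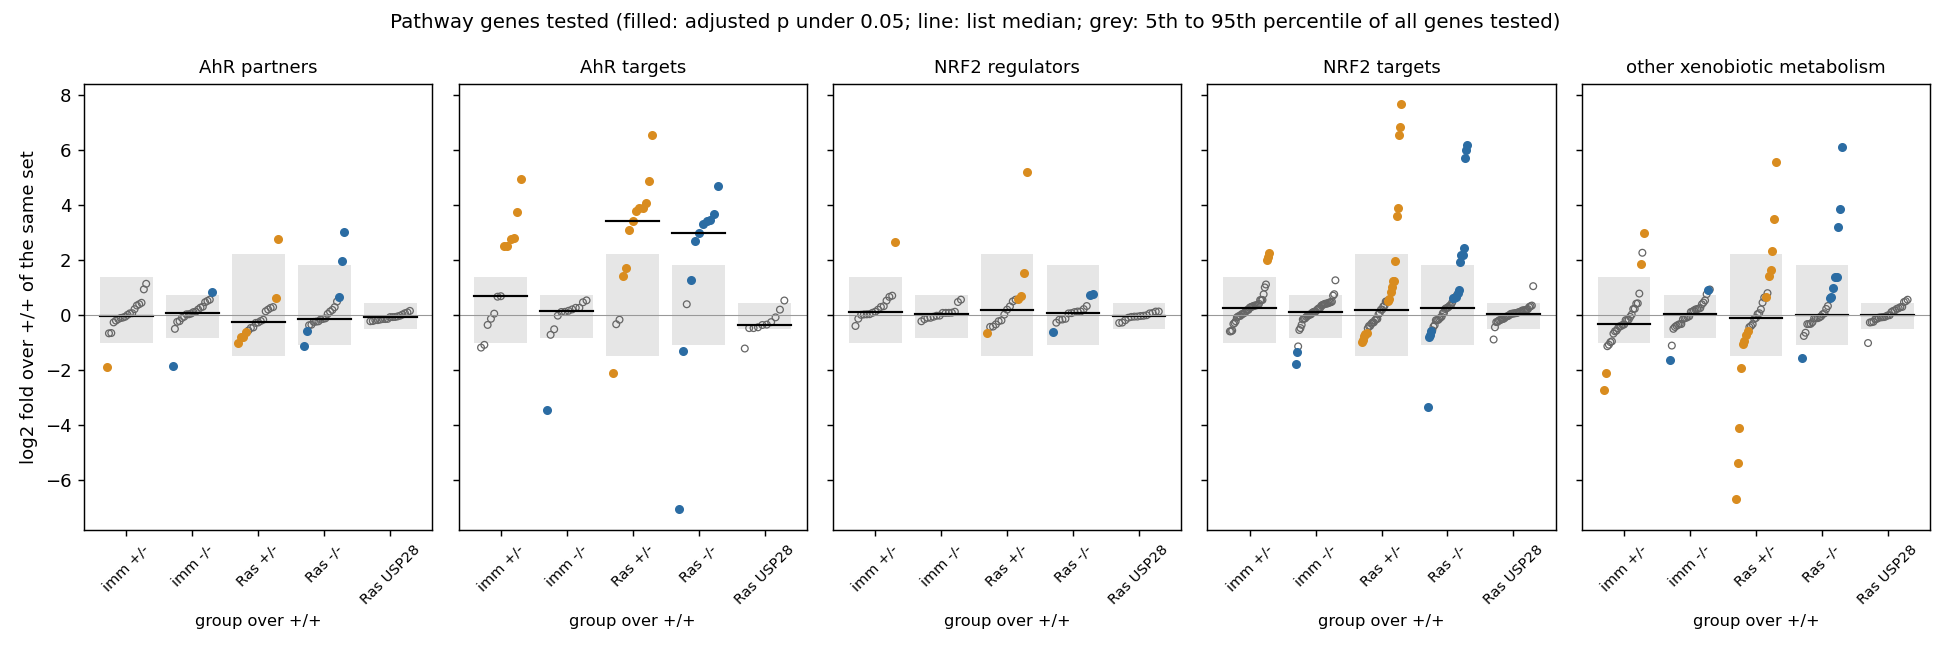
Log2 folds over +/+ of the tested genes of 5 pathway lists, with 1 point for each gene; filled points have an adjusted p under 0.05, the line is the list's median and the grey band runs from the 5th to the 95th percentile of all genes tested. The AhR target medians, with the 4 Ugt1a genes as separate points, are 0.68 in immortalized +/-, 3.42 in Ras +/- and 3.00 in Ras -/- cells, and the medians of the 4 other lists lie between -0.35 and 0.26.

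Partners and co-factors of AHR, 19 in the list, were called about as often as all genes in Ras cells: 6 of 17 in +/-, where 34.1% of all genes were called, and 5 of 18 in -/-, where 27.6% were. In immortalized +/- cells 0 of 18 rose and 1 fell, where 8.25% of all genes were called, and in -/- cells 1 of 18 rose and 1 fell, where 4.21% were. The gene that fell in both was Epas1, which encodes the hypoxia factor HIF2A, from 7.82 to 2.10 RPM in +/- cells (log2 fold -1.90, SE 0.50; edgeR adjusted p = 0.00194) and to 2.11 RPM in -/- cells (-1.88, SE 0.41; 0.000170). Cul4b, a ubiquitin ligase scaffold, was called higher in immortalized -/- cells (0.83, SE 0.26; 0.0400), a call lost with no filter, at 0.01, with doubled dispersion and with centred folds. In Ras +/- cells 2 of 17 rose and 4 fell, with a median of -0.28. In Ras -/- cells 3 of 18 rose and 2 fell, with a median of -0.14. Arnt2, a close relative of Arnt, rose from 6.20 RPM to 42.5 in +/- (2.78, SE 0.27; 1.43e-23) and 24.2 in -/- cells (1.96, SE 0.28; 2.31e-11), while Arnt was level. Arntl, the clock factor BMAL1, fell from 31.5 RPM to 15.4 and 14.4. With USP28 0 of 17 passed the adjusted edgeR p and 0 had an unadjusted one under 0.05, against 699 of 15444 genes tested.

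Regulators of NRF2, 15 in the list, gave 5 calls of 15 in Ras +/- cells, where 34.1% of all genes were called, and 3 of 14 in Ras -/- cells, where 27.6% were. In immortalized -/- cells 0 of 14 passed the adjusted edgeR p, where 4.21% of all genes did. Of the 14, 0 had an unadjusted edgeR p under 0.05, against 2393 of 16727 genes tested. In immortalized +/- cells 1 of 15 rose, where 8.25% of all genes were called. The 1 gene was Nfe2l3, a relative of Nfe2l2, from 8 to 51 reads (log2 fold 2.65, SE 0.66; edgeR adjusted p = 0.000633). In Ras +/- cells 4 of 15 rose and 1 fell, with Nfe2l3 from 5 to 217 reads and Dpp3, a peptidase that binds KEAP1, from 79.4 to 227 RPM (1.52, SE 0.21; 2.48e-11). In Ras -/- cells 2 of 14 rose (Keap1, from 52.0 to 87.4 RPM, and Bach2) and 1 fell (Mafk), and all 3 calls were lost with the dispersion doubled. With USP28 0 of 14 passed the adjusted edgeR p and 0 had an unadjusted one under 0.05, against 699 of 15444 genes tested.

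Further NRF2 targets, 35 in the list, were called in 17 of 34 cases in Ras +/- cells, where 34.1% of all genes were, and in 16 of 35 in Ras -/- cells, where 27.6% were. More of these Ras calls were higher than lower. Over all genes 17.5% were higher and 16.7% lower in Ras +/- cells, and 15.2% and 12.4% in Ras -/- cells. Among the genes called higher, Gsta4, Mgst1 and Cbr3 were under the filter in Ras +/+ cells and passed it only through the mutant groups. Cbr1, called higher in Ras -/- cells, was under the filter in the Ras +/- and USP28 comparisons. It is named here for that reason. In immortalized +/- cells, where 8.25% of all genes were called, 3 of 35 rose and 0 fell: Gsta4, a glutathione transferase, from 10.1 to 48.5 RPM (log2 fold 2.26, SE 0.41; edgeR adjusted p = 2.37e-06), Aox1 and Pir. In immortalized -/- cells, where 4.21% were called, 0 of 35 rose and 2 fell: Osgin1, from 14.1 to 4.11 RPM (-1.77, SE 0.34; 2.10e-05), and Gstm1, from 53.4 to 21.01 RPM (-1.35, SE 0.27; 7.88e-05). In Ras +/- cells 12 of 34 rose and 5 fell, with a median of 0.19. In Ras -/- cells 12 of 35 rose and 4 fell, with a median of 0.25. Gsta4 rose from 0.614 to 70.1 RPM in Ras +/- cells, and Cbr3, a carbonyl reductase, went from 2 reads in Ras +/+ to 218 in +/- and 176 in -/- cells, with counting intervals of 4.68 to 9.61 and 4.30 to 9.23 for its log2 fold. Pir went from 3.71 RPM in Ras +/+ to 14.5 in +/- and 0.358 in -/- cells, named after its values were seen. With USP28 0 of 31 passed the adjusted edgeR p and 1 had an unadjusted one under 0.05, against 699 of 15444 genes tested.

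Other genes of xenobiotic metabolism, 32 in the list, gave 2 of 27 higher and 2 lower in immortalized +/- cells, where 8.25% of all genes were called, and 1 of 26 in each direction in -/- cells, where 4.21% were. Gstt1, a glutathione transferase, fell in both, from 14.8 RPM to 2.19 (log2 fold -2.75, SE 0.48; edgeR adjusted p = 2.31e-07) and 4.69 (-1.65, SE 0.33; 4.86e-05). In Ras cells the same gene rose, from 2 reads in +/+ to 109 in +/- and 167 in -/- cells, with counting intervals of 3.66 to 8.62 and 4.22 to 9.15 for its log2 fold. In Ras +/- cells 6 of 25 rose and 8 fell, where 17.5% of all genes rose and 16.7% fell, and in Ras -/- cells 8 of 24 rose and 1 fell, where 15.2% rose and 12.4% fell. Cyp26b1, which clears retinoic acid, fell in +/- cells of both sets. In immortalized +/- cells it went from 44.3 to 10.2 RPM. In Ras cells it had 45 reads in +/+ and no read in +/- cells, where its log2 fold was -6.71 with 0.5 reads added. The size of that fold depends on the reads added. In Ras -/- cells it rose, from 3.92 to 57.0 RPM (3.86, SE 0.30, edgeR adjusted p = 1.03e-38). With USP28 0 of 23 passed the adjusted edgeR p and 2 had an unadjusted one under 0.05, against 699 of 15444 genes tested.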

How the data were processed

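Poly(A) RNA of MEFs was made into 17 libraries with 1 of 2 NEBNext kits, per the labels' protocols (the kit is not given by library), and read on an Illumina GAIIx. Reads were processed with CASAVA and FastQC, aligned to mm9 with Bowtie 0.12.8 and compared with edgeR by the authors, per the submitters' processing notes. Per the file headers, the deposited values are log2 mean levels and log2 ratios against +/+, with a p-value for each gene; adjusted p-values of the authors come with the Ras table only. Which table holds the immortalized set was taken from the list of the 10 genes, not from the headers.

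Group levels were rebuilt as 2 to the power of the mean log2 level plus or minus 0.5 of the log2 ratio, times 1000000. The spacing of low levels is the worth of 1 read, and from it came a depth of 11.4 to 13.9 M reads for a group (M, 1000000). By group, 81.1% to 100% of values below 20 reads were whole to 0.1 reads. The deposited p follows a single dispersion per comparison, fitted here as a coefficient of variation of 12.7% to 32.4%, from which the SEs were computed with 0.5 reads added; steps were tested on simulated data. No counts were used here, so the authors' deposited p was adjusted by the Benjamini-Hochberg method over genes with a mean of at least 1 RPM. A gene was called at an adjusted p under 0.05. The mean was over both groups, so a gene under the filter in +/+ cells was tested only where the other group was high. Such a gene could only count as higher. Among the genes named this held in Ras cells for Gsta4, Mgst1, Cbr3, Gstt1, Epas1, Nfe2l3, Cyp2s1, Serpinb2 and Htatip2. In immortalized +/- cells it held for Nfe2l3 and Cyp2s1. Aldh3a1 was under the filter in -/- cells of both sets and passed it only through +/+ cells. SEs between -/- and +/- use both dispersions. The members, lists and tests were chosen with earlier results of these data known. From each list and comparison up to 3 called genes with the smallest adjusted p were eligible to be named, with exceptions stated; the 5 genes closest to Cyp1b1 were named by the smallest distance. Gene positions are from GENCODE M21 and promoters from RefSeq. Python 3.11.15, pandas 2.3.3, numpy 2.4.6 and scipy 1.17.1 were used. Alternatives were other filters, a threshold of 0.01, the authors' own adjusted p, doubled dispersion, centred folds and 1 added read; counting the Ugt1a locus once was added after the data were seen. A gene of the lists is not reported by name here.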

Additional observations from a re-analysis of the deposited data

Results flagged for a closer look

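For genes of the pathway lists named by their calls, log2 folds over +/+ were compared between the 2 sets. The measure is the Ras fold minus the immortalized fold of the same genotype. Sex-linked and cell type markers also differed between these groups. Eif2s3y was at 18.6, 0 and 14.9 RPM in immortalized and 0, 0.151 and 22.4 RPM in Ras +/+, +/- and -/- cells. The part of such differences in these folds was not tested. An approximate Wald test with the implied standard errors, Benjamini-Hochberg adjusted over 15068 genes for -/- and 15211 for +/-, passed 0.05 for the genes below. The test did not pass for Mafk, Aldh3a1, Abcg2, Cul4b and Bach2 in -/- cells. Nor did it for Ncoa2, Bach1, Nfe2l3, Pir, Cyp2s1, Cyp26b1, Aox1 and Ugt1a7c in +/- cells. The share of all genes that passed is not given here. All these genes had been named because they were called in at least 1 comparison, so the differences are not independent of that choice. The errors rest on the common dispersion, not on the spread of the gene itself.

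For -/-, the Ras fold exceeded the immortalized fold by 7.42 for Gstt1, 6.00 for Cbr3, 5.46 for Mgst1, 4.68 for Epas1, 4.24 for Cyp26b1, 3.92 for Osgin1, 3.51 for Cyp4v3, 3.28 for Gstm1, 1.85 for Arnt2 and 0.98 for Keap1. For the Ugt1a genes, which share exons, it was 3.18 for Ugt1a6a, 3.17 for Ugt1a6b and 2.86 for Ugt1a7c. The difference for Arntl was -1.59. Gstt1, Gstm1, Osgin1 and Epas1 were called lower in immortalized -/- and higher in Ras -/- cells.

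For +/-, the difference was 7.97 for Gstt1, 6.11 for Mgst1, 5.96 for Cbr3, 4.48 for Gsta4, 2.71 for Arnt2, 1.91 for Cyb5a, 1.40 for Dpp3, 1.39 for Ugt1a6a and 1.40 for Ugt1a6b. It was -4.72 for Cyp2u1, -2.02 for Xdh and -1.96 for Arntl. Gstt1, Mgst1, Cbr3 and Epas1 had 1 to 3 reads in Ras +/+ cells, and Cyp2u1 had 2 reads in Ras +/- cells, so their differences rest on few reads in 1 group. The differences for -/- and +/- share the +/+ libraries of each set.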

How the results depend on the processing

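No paired analysis was possible because the deposited tables hold group comparisons and no value for a single library was used; leaving out a library was not run for the same reason. Among the counts of calls recomputed, 173 stayed within 1.5 times and 28 moved, and the 87 member folds with 1 read added in place of 0.5 moved by less than their error. With the dispersion doubled the genes called were 862 in immortalized +/-, 312 in immortalized -/- and 2680 in Ras -/- cells, against 1406, 705 and 4381; at 0.01 immortalized -/- had 424. Members called with USP28 went from 1 to 0 with no filter, at 0.01, with the authors' own adjusted p and with doubled dispersion. AhR partners called in immortalized -/- went from 2 to 1 with no filter, with 5 RPM, at 0.01, with doubled dispersion and with centred folds; in Ras +/- from 6 to 3 and in Ras -/- from 5 to 3, each at 0.01 and with doubled dispersion. With the filter at 5 RPM, which tests fewer genes, calls went from 1 to 0 for AhR partners and NRF2 regulators in immortalized +/- and for AhR targets in immortalized -/-, and from 14 to 8 for other xenobiotic genes in Ras +/-. NRF2 regulators went from 5 to 3 at 0.01 and 2 with doubled dispersion in Ras +/-, and from 3 to 1 and 0 in Ras -/-. Other xenobiotic genes in immortalized -/- went from 2 to 1 at 0.01 and with doubled dispersion. With the Ugt1a locus counted once, added after the data were seen, AhR targets in immortalized +/- went from 6 to 3. Apart from the tighter threshold, the larger dispersion and the smaller sets of genes counted, the cause was not tested. The floor of 3 reads is 0.216 to 0.264 RPM by group; the 95% Poisson upper limit for 0 reads of Cyp1a1 was 0.266 to 0.324 RPM.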
